A study of Homo sapiens with 42 samples.

Results

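The polyadenylated transcriptome of K562 cells kept in imatinib for 18 h (IM 18h) was compared with that of untreated K562 cells (CTRL). The comparison used 6 of the 42 samples of the series, 3 biological replicates per group, chosen as the mRNA libraries labelled untreated and those labelled as imatinib-treated for 18 h. K562 is an established cell line from a patient with chronic myeloid leukaemia (CML) in blast crisis, and it carries the BCR-ABL1 fusion. Cells were seeded the day before treatment and imatinib, a small-molecule inhibitor of the BCR-ABL1 kinase, was added at 1 µM. CTRL cells received neither imatinib nor any other agent, and their labels give no time point and no vehicle. The mRNA was selected from total RNA on oligo-dT beads. For each of 58243 gene identifiers the deposited value was a count of read pairs, and 18095 genes had enough counts to be tested. Further libraries served to place the 18 h values: 3 of mRNA after 6 h of imatinib (IM 6h), 3 of mRNA after 18 h of JTE-607 at 5 µM (JTE 18h), and 6 of rRNA-depleted nuclear RNA from CTRL and IM 18h cells. Libraries of mRNA after 1 h of imatinib (IM 1h) are shown in a figure only. All 27 mRNA libraries of the series entered 1 fit and all 15 nuclear libraries another. These included cells given JTE-607 for 1 h or 6 h or KCl at 110 mM for 1 h or 3 h. They helped to set the genes tested and the estimated spread. JTE-607 inhibits the endonuclease that cleaves pre-mRNA before polyadenylation.

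BCR-ABL1 is a constitutively active tyrosine kinase. It drives growth and survival of CML cells through STAT5, through RAS and the MAP kinases ERK1 and ERK2, and through PI3K and AKT, the last of which keeps FOXO transcription factors out of the nucleus. Transcription of feedback inhibitors follows the activity of these pathways closely, so that SOCS and CISH mRNAs report on STAT5 and SPRY and DUSP mRNAs report on ERK. MYC, whose transcription depends on several of these inputs, in turn drives genes for ribosome production and for nucleotide and glucose metabolism. K562 cells resemble erythroid progenitors of the embryonic and fetal type, and they can be pushed to make more haemoglobin by several agents.

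The 6 libraries were of similar size, with 17661189 to 19031221 counted read pairs, so that 1 count in an average library was worth 0.0542 CPM, the count per 1000000 counts of the library. Below, CPM are scaled by the trimmed mean of M-values (TMM), and a count of 3 in a library, worth 0.163 CPM in CTRL, is the floor under which a gene is treated as not detected. No pair of replicates agreed within counting noise: chi-square per gene was 6.69 for the closest pair, IM 18h replicates 2 and 3, and 24.6 for the farthest, CTRL replicates 2 and 3. Transcripts of the mitochondrial genome took 10.0% to 10.9% of counts in CTRL and 12.5% to 12.7% in IM 18h. Of 15 of them kept as a list edgeR called 0 and DESeq2 0, with 6 at an unadjusted p under 0.05 and a median log2 fold change of 0.12. Outside that list the mitochondrial tRNA gene MT-TM was called lower, at -2.73. It measured 0.386, 0.367 and 0.780 CPM in CTRL and 0.0543, 0.0526 and 0.110 CPM in IM 18h. The IM 18h values were all under the floor, so the size of this fold is uncertain. The part of mitochondrial transcripts in the results below was not tested. CTRL replicate 2 stood apart for genes of amino acid stress, IM 6h replicate 3 for erythroid genes and IM 18h replicate 1 for erythroid and nucleolar genes. In IM 18h replicates 1, 2 and 3 the summed CPM were 13721, 9509 and 9372 for globin genes. For nucleolar genes they were 5642, 6982 and 7055. Leaving out IM 18h replicate 1 gave the lowest count of genes called against CTRL, 4580. Values without these libraries are given beside results they move. Floors cover counting error only, whereas SE and intervals come from the fit and take in the spread between replicates.

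The labelled cell type was first set against its defining markers. Embryonic and fetal globin mRNAs were abundant in CTRL, at a mean of 1208 CPM per kb of exon for HBE1 and 617 for HBG2, whereas the adult HBB was at 0.441. Of 14 lymphocyte markers, 11 were below the filter on low counts, and PAX5 had no count in any of the 6 libraries. Of 17 granulocyte and monocyte markers 9 were below it, among them MPO, with 3 counts in CTRL replicate 3 and 0 in the other libraries. Of 16 megakaryocyte markers 8 were below it, and PF4, GP1BB and FLI1 were at 0 in all 6.

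Imatinib acts on the kinase protein, so the mRNA of the target is no check of the treatment. BCR measured 142, 139.8 and 151 CPM in CTRL and 142, 138 and 145 CPM in IM 18h, a log2 fold change of -0.03 ± 0.13 (SE, here and below) with an edgeR adjusted p = 0.881. ABL1 measured 283, 299 and 355 CPM and 298, 292 and 318 CPM, with a log2 fold change of -0.04 ± 0.14 and an edgeR adjusted p = 0.83. Both groups overlapped for both genes, and the 95% intervals of the log2 fold changes ran from -0.29 to 0.23 for BCR and from -0.34 to 0.25 for ABL1. Counting cannot separate the fusion transcript from the normal BCR and ABL1 transcripts. Among 8 tested genes for proteins that bind imatinib, 2 (25.0%) fell and none rose. Over all tested genes 13.2% fell and 30.5% were called in either direction. The 2 fallers were DDR2, a collagen receptor kinase, at -1.42, and NQO2, an oxidoreductase, at -1.05. Leaving out IM 18h replicate 2 moved DDR2 to -2.10.

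Of the 18095 genes tested, 5513 (30.5%) changed between CTRL and IM 18h, by edgeR's quasi-likelihood test taking those whose p stayed under 0.05 after Benjamini-Hochberg adjustment and whose log2 fold change exceeded 0.6 in size. mRNAs of 3116 genes (17.2%) rose and those of 2397 genes (13.2%) fell. The median log2 fold change of all tested genes was 0.04. The 3 libraries of one group did not overlap those of the other for 10043 genes (55.5%). The median level was 3.71 CPM for risen genes, 20.4 CPM for fallen genes and 9.38 CPM for all tested genes. Long non-coding RNA genes made up 23.8% of the risen, 6.09% of the fallen and 13.3% of all tested genes. Among genes with a mean of at least 10 CPM the balance turned, with 1166 risen and 1250 fallen. The counts for each gene list below stand against the shares of 17.2% risen, 13.2% fallen and 30.5% called in either direction over all tested genes. A log2 fold change above 2 was reached by 626 risen genes and one below -2 by 236 fallen genes.

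**Figure D1:**
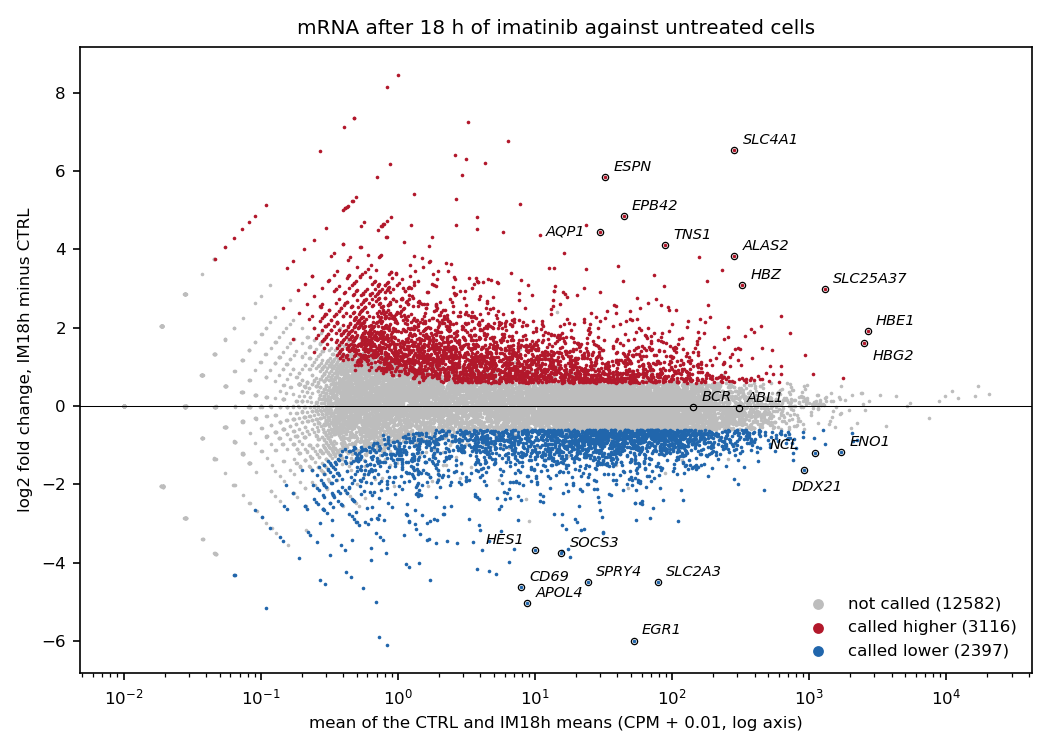
Each point is 1 of the 18095 tested genes, placed by its mean level in CPM (log axis) and its log2 fold change of IM 18h minus CTRL, coloured by whether it passed the test. Among the labelled genes SLC4A1 lies at the top, at 6.53, and EGR1 at the bottom, at -5.99.

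The largest rise among well expressed genes was in SLC4A1, which encodes an anion exchanger of the red cell. With genes required to reach a mean of 10 CPM in the higher group and non-overlapping libraries, the leading risers were SLC4A1 (6.53), ESPN (5.85), LMOD1 (5.16), EPB42 (4.85), CYP3A5 (4.63), TSPAN32 (4.45), AQP1 (4.45), TNS1 (4.10), ARHGAP23 (3.91) and ALAS2 (3.83). ESPN encodes an actin-bundling protein, LMOD1 an actin nucleator of smooth muscle, TNS1 a protein that links integrins to actin and ARHGAP23 a GTPase-activating protein. CYP3A5 encodes a cytochrome P450 that metabolises drugs, imatinib among them. It measured 1.93, 2.15 and 1.39 CPM in CTRL and 61.4, 38.9 and 36.1 CPM in IM 18h (edgeR adjusted p = 2.03e-09). ESPN measured 1.05, 1.20 and 1.06 CPM and 99.7, 54.9 and 38.1 CPM (edgeR adjusted p = 2.95e-05). For both genes every IM 18h library was above every CTRL library, which the choice of these genes required. The value for LMOD1 rose to 6.43 without CTRL replicate 2, and that for TSPAN32, a haematopoietic tetraspanin, to 5.06 without CTRL replicate 3.

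The largest falls were in EGR1 (-5.99), APOL4 (-5.02), CD69 (-4.62), SLC2A3 (-4.49), SPRY4 (-4.49), CFAP161 (-3.97), TMEM273 (-3.85), SOCS3 (-3.76), LINC00861 (-3.69) and HES1 (-3.67). CD69 encodes an activation antigen of lymphocytes and HES1 a transcriptional repressor downstream of NOTCH. APOL4, of the apolipoprotein L family, measured 15.5, 14.8 and 21 CPM in CTRL and 0.0543, 0.948 and 0.550 CPM in IM 18h (edgeR adjusted p = 2.02e-09). HES1 measured 13.1, 17.5 and 25.3 CPM and 0.760, 1.68 and 1.93 CPM (edgeR adjusted p = 1.40e-07). No CTRL library overlapped an IM 18h library for either gene, which the choice of these genes required. CD69 was uneven in CTRL, at 5.29, 28.0 and 12.2 CPM, and its value became -3.85 without CTRL replicate 2; that of APOL4 became -5.82 without IM 18h replicate 2. By change in CPM, the most abundant risers included HBE1, HBG2, SLC25A37, HEMGN and TFRC, and the most abundant fallers were ENO1, HSPA8, HSP90AA1, DDX21, NCL and ACTB. HEMGN, a nuclear protein of haematopoietic progenitors, went from a mean of 312 to 1143 CPM and HSPA8, the constitutive cytosolic chaperone, from 2880.2 to 1579 CPM. HSP90AA1, an inducible chaperone, had a log2 fold change of -0.90 ± 0.33 and an edgeR adjusted p = 0.0342, and its call was lost without any 1 of 5 libraries, with adjusted p from 0.0521 to 0.122. ACTB, beta-actin, at -0.68, moved to -0.51 without CTRL replicate 3, inside the fold threshold.

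STAT5 target mRNAs fell together. Of 11 tested genes in the list 10 fell and none rose, with a median log2 fold change of -2.39, against 13.2% of all tested genes. Among the feedback inhibitors of cytokine signalling, SOCS3 measured 27.6, 34.0 and 25.5 CPM in CTRL and 1.90, 1.95 and 2.59 CPM in IM 18h, a log2 fold change of -3.76 ± 0.30 (edgeR adjusted p = 4.65e-09). CISH measured 58.7, 68.3 and 35.0 CPM and 7.76, 8.37 and 6.77 CPM, a log2 fold change of -2.82 ± 0.32 (edgeR adjusted p = 4.81e-07). The lowest CTRL library stood well above the highest IM 18h library for both. SOCS2 was at -2.49 and SOCS1 at -1.17; the call for SOCS1 was lost without either IM 18h replicate 2 or 3 or CTRL replicate 1 or 3, with adjusted p up to 0.116. PIM1, a serine/threonine kinase that promotes survival, measured 384, 675 and 273 CPM in CTRL and 145, 126 and 97.2 CPM in IM 18h, a log2 fold change of -1.85 ± 0.47 (edgeR adjusted p = 0.00361). The 3 CTRL libraries were spread widely for PIM1, with replicate 2 highest, but none was as low as an IM 18h library. The related PIM2 was at -2.39, CCND2, the gene for cyclin D2, at -2.39 and ID1, an inhibitor of basic helix-loop-helix factors, at -3.13. CCND3 was the 1 tested member that did not pass, at 0.16.

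The promoter of CISH is shown because it was the 1 list member with a match to the STAT5 half-site pair TTCNNNGAA, which reads the same on both strands. The search covered the 250 bases before each start in RefSeq's table, here and for the motifs further below. The 50 bases after the start that the table also holds were not searched. The stretch printed lies at chr3:50611838-50612024 (GRCh38.p14, minus strand), with the matches in capitals.
CISH promoter: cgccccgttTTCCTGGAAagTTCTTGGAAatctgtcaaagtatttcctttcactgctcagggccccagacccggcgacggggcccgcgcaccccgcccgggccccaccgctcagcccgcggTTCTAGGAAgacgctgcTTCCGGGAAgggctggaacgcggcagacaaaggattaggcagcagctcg
It holds 4 matches, between 241 and 112 bases before the start. Among the 12 starts of the 8 list genes found in RefSeq's table, 1 had a match, while 5.52% of 16062 starts of tested genes and 6.57% of all 35116 starts had one. A match is a description of letters, and its absence from this window says nothing about STAT5.

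Genes under ERK control fell as well, 15 of the 19 tested members of the list of feedback and immediate early genes, against 13.2% of all tested genes. None rose, and the median log2 fold change was -1.76. EGR1 (chromosome 5, 138465490 to 138469315, plus strand, hg38), a zinc-finger transcription factor induced within minutes by ERK, measured 40.9, 159 and 109.8 CPM in CTRL and 1.79, 1.68 and 1.38 CPM in IM 18h, a log2 fold change of -5.99 ± 0.85 (edgeR adjusted p = 1.46e-05). CTRL replicate 1 was well below the other CTRL libraries, but all 3 stood far above the IM 18h libraries. SPRY4, a Sprouty inhibitor of RAS signalling, measured 37.8, 52.1 and 49.9 CPM and 1.63, 2.21 and 2.37 CPM, a log2 fold change of -4.49 ± 0.67 (edgeR adjusted p = 2.13e-05). The ETS factors ETV4 and ETV5 were at -3.24 and -3.66, the phosphatase gene DUSP5 at -2.75, FOSL1 at -2.75 and JUN at -1.39. SPRY1 (-1.17, edgeR adjusted p = 0.0698), JUNB (-0.17), SPRED3 (0.0) and PHLDA1 (0.05) did not pass. FOS was at -4.10 and at -4.71 without IM 18h replicate 2, and the call for EGR3 was lost without CTRL replicate 3 (adjusted p = 0.321).

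**Figure D2:**
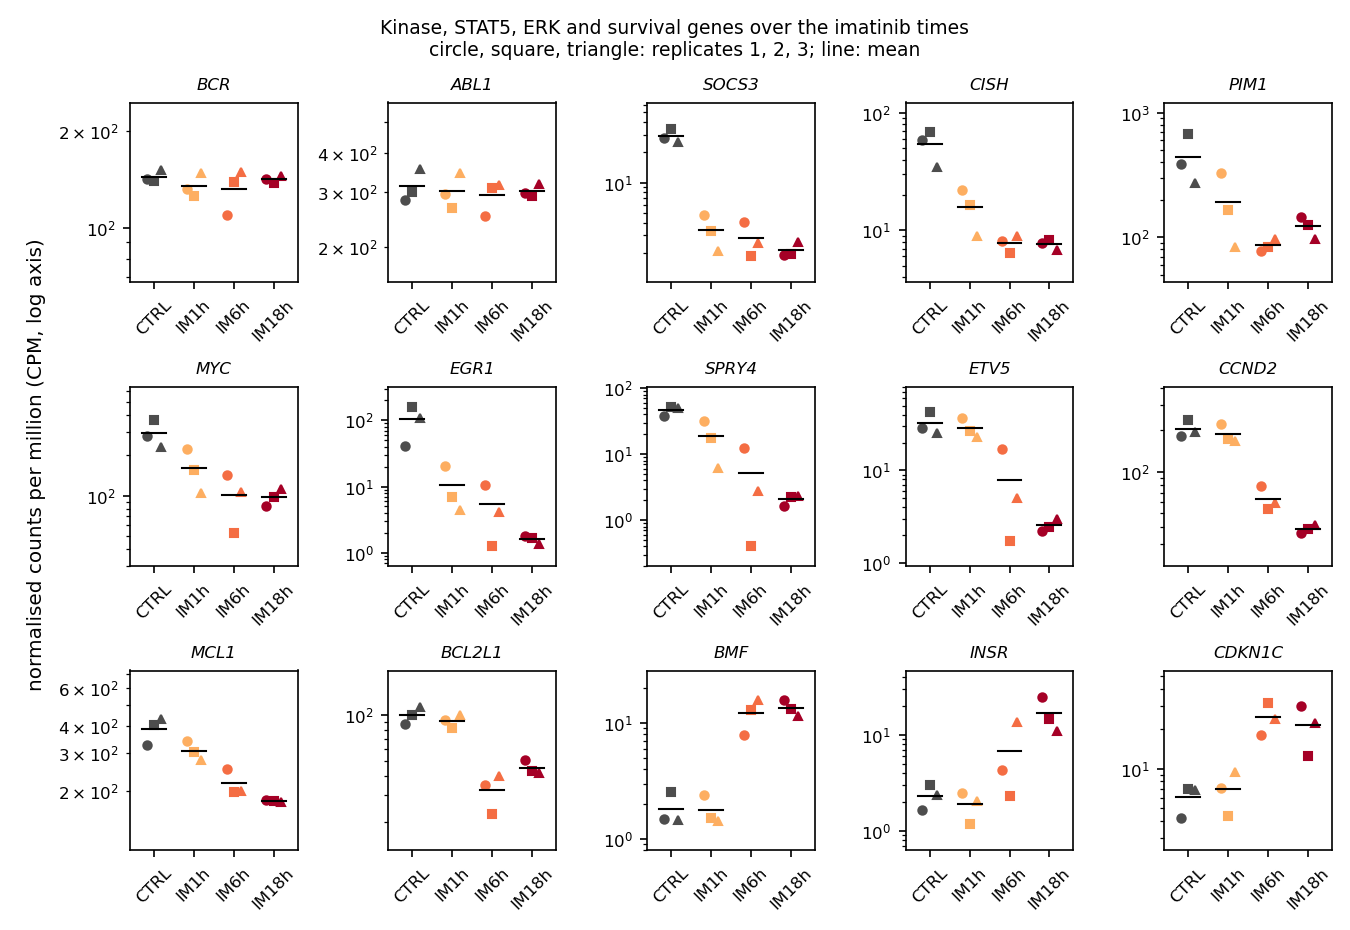
CPM (log axis) of genes of the signalling lists in each library of the groups CTRL, IM 1h, IM 6h and IM 18h, with circles, squares and triangles for replicates 1, 2 and 3 and a line at the mean. SOCS3 falls from a CTRL mean of 29.0 CPM to 2.83 CPM at 6 h and 2.14 CPM at 18 h.

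FOXO target mRNAs moved the other way. Of 16 tested genes 11 rose and none fell, with a median log2 fold change of 1.25, against 17.2% of all tested genes. INSR, the insulin receptor, measured 1.65, 2.99 and 2.34 CPM in CTRL and 24.8, 14.4 and 11 CPM in IM 18h, a log2 fold change of 2.84 ± 0.51 (edgeR adjusted p = 0.000119). SESN3, which restrains mTORC1, measured 5.40, 5.97 and 4.63 CPM and 26.4, 15 and 17.3 CPM, a log2 fold change of 1.88 ± 0.26 (edgeR adjusted p = 3.72e-06). Both genes had non-overlapping groups. PIK3IP1, an inhibitor of PI3K, was at 1.47, PINK1, a mitochondrial kinase, at 1.52, CITED2 at 1.73, TXNIP, which limits glucose uptake, at 1.43 and CAT, catalase, at 1.08. Without IM 18h replicate 1 only 7 of the 11 kept their call, with losses for SESN1, CDKN1B, FBXO32 and CCNG2. CCNG2 also lost it without IM 18h replicate 2 and CTRL replicates 1 and 3, at adjusted p from 0.0643 to 0.11.

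Upstream in the pathway, 3 of 26 tested adaptors and effectors of BCR-ABL1 rose and 6 fell, with a median log2 fold change of -0.12. The share called, 34.6%, was close to the 30.5% of all tested genes. The risers were INPP5D (1.49), the phosphatase SHIP1 that opposes PI3K, JAK2 (1.13), the cytokine receptor kinase, and MAPK3 (0.66), which is ERK1. LYN, a SRC family kinase, fell the furthest, from 184, 203 and 209 CPM in CTRL to 63.9, 73.0 and 72.1 CPM in IM 18h, a log2 fold change of -1.51 ± 0.11 (edgeR adjusted p = 1.77e-09). GAB2, a docking protein, was at -0.90 and STAT5A at -0.89, while STAT5B, at 0.47 (edgeR adjusted p = 0.0641), did not pass. PIK3CB, HRAS and CBL lay between -0.60 and -0.63, and with upper quartile scaling the falling members numbered 3. PIK3CB moved inside the fold threshold without CTRL replicate 3, HRAS without IM 18h replicate 3 or CTRL replicate 1 or 3 and CBL without replicate 2 of either group. MAPK3 lost its call without replicate 1 of either group, at log2 fold changes of 0.56 and 0.57.

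In the BCL2 family, which sets the threshold of apoptosis, 1 of 15 tested genes rose and 6 fell, against 17.2% and 13.2% of all tested genes. The riser was BMF, a BH3-only activator of apoptosis, with 1.49, 2.51 and 1.45 CPM in CTRL and 15.8, 13.3 and 11.6 CPM in IM 18h and a log2 fold change of 2.89 ± 0.31 (edgeR adjusted p = 1.41e-07). Fallers included the anti-apoptotic genes MCL1 (-1.11), BCL2L1 (-1.14) and BCL2 (-1.51), but also the effectors BAK1 (-1.32) and BOK (-0.98) and the BH3-only BID (-0.76). MCL1 went from 327, 404 and 434 CPM to 183, 179.6 and 178 CPM (edgeR adjusted p = 5.27e-08). BCL2L11, which encodes BIM, was at 0.63 ± 0.31 and did not pass (edgeR adjusted p = 0.101), although it did without CTRL replicate 3, at 0.90. The call for BOK was lost without any 1 of 5 libraries, at adjusted p from 0.0579 to 0.141.

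Erythroid genes rose. All 10 globin genes rose, with a median log2 fold change of 1.94, and their summed level was 3141, 4175 and 2176 CPM in CTRL and 13721, 9509 and 9372 CPM in IM 18h. HBE1, the embryonic epsilon globin, measured 1089, 1486 and 787 CPM in CTRL and 5522, 3791 and 3389 CPM in IM 18h, a log2 fold change of 1.92 ± 0.39 (edgeR adjusted p = 0.000536). HBZ, the embryonic zeta globin, measured 77.0, 92.7 and 35.7 CPM and 707, 502 and 532 CPM, a log2 fold change of 3.08 ± 0.59 (edgeR adjusted p = 0.00032). IM 18h replicate 1 was the highest and CTRL replicate 3 the lowest for both, and the groups did not overlap. HBM was at 3.19, HBA2 at 2.24, HBA1 at 1.86, HBG2 at 1.61 and HBG1 at 1.29. Per kb of exon in IM 18h the order was HBE1 (4562 CPM), HBG2 (1880.4), HBG1 (1655), HBZ (769), HBM (356), HBA1 (322), HBA2 (308), HBD (29.6), HBQ1 (20.8) and HBB (1.75). In these bulk libraries fewer cells of a type and less RNA per cell cannot be told apart, for globins as for every list below. The near-identical pairs HBG1 with HBG2 and HBA1 with HBA2 were counted from uniquely mapped reads and exons of HBE1 and HBG2 overlap in the annotation, so their individual values are uncertain. Without 1 library, 7 to 10 of the 10 stayed called: HBG1 was lost without CTRL replicate 3 (adjusted p = 0.0524), and HBB and HBD without 3 and 4 libraries respectively, with adjusted p up to 0.121.

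Genes of the erythrocyte membrane and its skeleton had the highest share of risen members among the lists with over 11 tested genes. Of 23 tested, 20 rose and none fell, the median log2 fold change was 1.80, and all 23 had IM 18h libraries above CTRL libraries, against 29.4% of all tested genes. SLC4A1 (chromosome 17, 44248385 to 44268141, minus strand, hg38), the band 3 anion exchanger, measured 8.54, 5.76 and 3.90 CPM in CTRL and 1028, 374 and 285 CPM in IM 18h, a log2 fold change of 6.53 ± 1.28 (edgeR adjusted p = 0.000432). EPB42, protein 4.2, which anchors band 3 to the skeleton, measured 4.24, 3.35 and 1.34 CPM and 117, 69.0 and 72.0 CPM, a log2 fold change of 4.85 ± 0.73 (edgeR adjusted p = 2.42e-05). AQP1, the water channel that carries the Colton blood group, measured 3.58, 1.47 and 2.84 CPM and 47.9, 55.1 and 69.3 CPM, a log2 fold change of 4.45 ± 0.45 (edgeR adjusted p = 1.43e-07). For SLC4A1 and EPB42 IM 18h replicate 1 was the highest of its group, for AQP1 replicate 3, and no library crossed between groups. Leaving out IM 18h replicate 1 brought SLC4A1 to 5.76, with its call kept.

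Glycophorins A, B and E were at 1.97, 3.06 and 1.75, the Rh antigens RHCE and RHD at 2.76 and 2.57, and the Kell antigen gene KEL at 2.58. The beta spectrin gene SPTB was at 1.18, dematin (DMTN) at 2.0, beta adducin (ADD2) at 1.80 and ankyrin (ANK1) at 0.83. GYPC (0.60), RHAG (0.59) and EPB41 (0.50) had edgeR adjusted p from 0.000541 to 0.00736 and lay inside the fold threshold. Glycophorin and Rh genes have near-identical copies, so their individual values are uncertain.

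**Figure D3:**
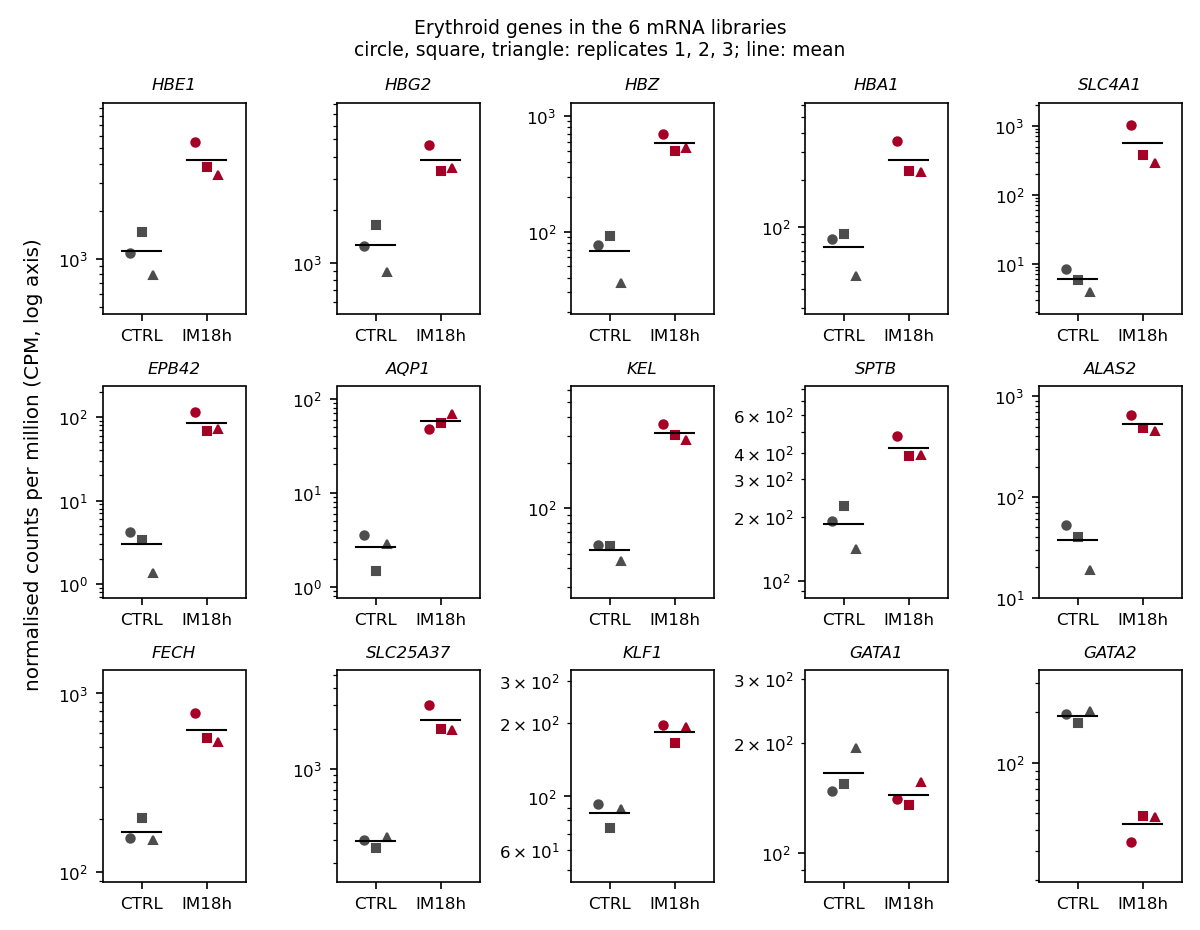
CPM (log axis) of 15 erythroid genes in each of the 3 CTRL and 3 IM 18h libraries, with circles, squares and triangles for replicates 1, 2 and 3 and a line at the mean. GATA1 overlaps between the groups, with means of 166 and 144 CPM, whereas SLC4A1 goes from a mean of 6.07 to 562 CPM.

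Haem synthesis showed the same direction, with 10 of 14 tested genes risen, none fallen and a median log2 fold change of 1.48. ALAS2, the erythroid first enzyme of the pathway, measured 52.5, 40.2 and 18.8 CPM in CTRL and 655, 482 and 452 CPM in IM 18h, a log2 fold change of 3.83 ± 0.64 (edgeR adjusted p = 8.96e-05). Each IM 18h library was far above each CTRL library. Among the enzymes that follow it, log2 fold changes were 2.62 for ALAD, 1.5 for UROS, 1.91 for CPOX, 2.74 for PPOX and 1.88 for FECH, while UROD (0.45) was inside the fold threshold. ALAS1, the first enzyme in other tissues, was at -0.56 and inside the fold threshold too. Without 1 library at a time 9 or 10 stayed called, with SLC25A39, a mitochondrial glutathione carrier, at 0.58 without IM 18h replicate 1.

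Iron genes were mixed: 5 of 15 tested rose, none fell and the median was 0.06. SLC25A37, mitoferrin, which brings iron into the mitochondrion, measured 300.1, 261 and 314 CPM in CTRL and 2985, 1999 and 1945 CPM in IM 18h, a log2 fold change of 2.99 ± 0.30 (edgeR adjusted p = 1.24e-07). No IM 18h library came near the CTRL range. TFR2 was at 1.48, the iron transporter SLC11A2 at 1.10, NCOA4, the receptor for ferritin turnover, at 1.02 and the transferrin receptor TFRC at 0.72. TFRC fell inside the fold threshold without IM 18h replicate 1, at 0.58. Ferritin genes did not pass, FTH1 at 0.36 and FTL at -0.39.

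Of 19 tested erythroid transcription factor genes 6 rose and 3 fell. GATA1, the master regulator of the lineage, measured 148, 154 and 194 CPM in CTRL and 140.4, 135 and 156 CPM in IM 18h, a log2 fold change of -0.20 ± 0.15 (edgeR adjusted p = 0.299). GATA2, which precedes it in progenitors, measured 195, 173 and 203 CPM and 33.9, 48.1 and 47.5 CPM, a log2 fold change of -2.14 ± 0.17 (edgeR adjusted p = 2.91e-09). GATA1 groups overlapped and GATA2 groups did not. KLF1, which activates globin genes, measured 93.1, 74.4 and 89.0 CPM and 196, 166 and 193 CPM, a log2 fold change of 1.11 ± 0.14 (edgeR adjusted p = 1.67e-06). TAL1 was at 1.45, FOXO3 at 1.43, GFI1B, a repressor, at 1.31, and MYB, a progenitor factor, at -1.5. KLF3 lost its call without IM 18h replicate 1 or CTRL replicate 3, and LMO2 without IM 18h replicate 1 or CTRL replicate 1 or 2, at adjusted p up to 0.119.

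Promoters of 4 of these genes are shown with the GATA-type motif AGATAA, searched on both strands, in capitals. EPB42 is at chr15:43221034-43221266, ALAS2 at chrX:55031059-55031144, KEL at chr7:142962380-142962465 and SPTB at chr14:64879908-64879989 (RefSeq, GRCh38.p14, all minus strand). In ALAS2 the match is on the opposite strand and reads TTATCT.
EPB42 promoter: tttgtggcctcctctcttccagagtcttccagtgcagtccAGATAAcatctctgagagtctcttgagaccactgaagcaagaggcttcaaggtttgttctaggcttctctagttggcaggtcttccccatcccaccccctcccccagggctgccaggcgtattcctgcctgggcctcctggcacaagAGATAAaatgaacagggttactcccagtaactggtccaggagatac
ALAS2 promoter: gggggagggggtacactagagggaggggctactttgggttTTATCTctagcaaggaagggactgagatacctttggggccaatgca
KEL promoter: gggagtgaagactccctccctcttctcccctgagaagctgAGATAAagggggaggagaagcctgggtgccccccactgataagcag
SPTB promoter: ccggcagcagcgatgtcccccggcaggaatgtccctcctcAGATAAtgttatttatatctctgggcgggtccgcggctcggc
A match was found in 8 of 26 starts of the 17 membrane and skeleton genes in RefSeq's table and in 3 of 14 starts of the 12 haem synthesis genes. Among all tested genes 5.53% of starts had a match, with 8.16% for risen genes, 4.89% for fallen genes and 5.01% for genes that did not pass. Starts of 1 gene overlap and are not independent, and these shares are descriptions.

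Markers of other lineages were low and moved in both directions. Of 8 tested megakaryocyte genes TUBB1 (3.36), ITGB3 (2.82) and CD9 (1.46) rose and THBS1 (-1.80) fell, and the 16 markers summed to 116 to 127 CPM in CTRL and 236 to 274 CPM in IM 18h before TMM scaling. ITGA2B, glycoprotein IIb, was at -0.02. CD33 (-2.30) and SPI1 (-1.99) fell among 8 tested granulocyte and monocyte genes, whose list summed to 30.7 to 68.3 CPM in CTRL and 9.76 to 19.2 CPM in IM 18h. CD3D (-4.0) and CD3G (-2.66) fell among 3 tested lymphocyte genes, with list sums of 5.45 to 6.72 CPM and 2.91 to 3.62 CPM. CD7, a lymphocyte marker below the filter on low counts, went the other way. It had 0, 0 and 0 counts in CTRL and 17, 3 and 9 in IM 18h. The call was lost without 1 library for CD9, THBS1, SPI1 and CD3G, at adjusted p up to 0.122. The part of other cell types in the results was not tested, and several defining markers were at 0, as given above.

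Ribosome biogenesis fell almost as a block. Of 58 tested nucleolar genes 55 fell and none rose, the median log2 fold change was -1.25, and for all 58 the IM 18h libraries lay below the CTRL libraries, against 26.1% of all tested genes. NOP16, an assembly factor of the large subunit, measured 89.8, 67.4 and 89.8 CPM in CTRL and 15, 22.8 and 23.1 CPM in IM 18h, a log2 fold change of -2.02 ± 0.20 (edgeR adjusted p = 8.52e-08). NCL, nucleolin, measured 1790.5, 1412 and 1439.5 CPM and 561, 753 and 715 CPM, a log2 fold change of -1.19 ± 0.18 (edgeR adjusted p = 1.67e-05). DDX21, an RNA helicase of the nucleolus, was at -1.63, with 1515, 1423 and 1255 CPM and 371, 500.4 and 479 CPM. IM 18h replicate 1 was the lowest library for all 3. The RNA polymerase I subunit genes POLR1A, POLR1B and POLR1C were at -1.06, -1.46 and -1.36, and its initiation factor RRN3 at -1.08. The small subunit processome was represented by UTP20 (-1.61), UTP15 (-1.84), WDR43 (-1.56) and NOL6 (-1.59) and the box C/D particle by NOP56 (-1.20) and NOP58 (-0.84). FBL (-0.60), NPM1 (-0.56) and DDX52 (-0.53) lay inside the fold threshold, FBL at its edge. Leaving out 1 library gave 55 to 58 fallen members.

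Genes for the ribosomal proteins themselves did not follow. Of 78 tested, 2 fell and none rose, and the median log2 fold change was 0.10, with sums of 56704 to 59241 CPM in CTRL and 62690 to 67086 CPM in IM 18h before TMM scaling. The 2 were RPL17 (-0.68) and RPS10 (-0.67), and each lost its call without 1 or more libraries, at adjusted p from 0.0581 to 0.149. RPL4, which was abundant, was at 0.06 ± 0.07 (edgeR adjusted p = 0.459) and RPLP0 at 0.34. Of 30 tested translation factor genes 11 fell, the median was -0.45, and EIF4G2 (-0.96), EIF2S1 (-0.95), EIF4G1 (-0.95) and EIF4E (-0.72) were among them. The elongation factor EEF1A1, the most abundant of them, was at 0.38. Of 20 cytosolic aminoacyl-tRNA synthetase genes 8 fell, including FARSA (-1.01) and VARS1 (-0.92), with a median of -0.51. With upper quartile scaling 6 of these 20 fell.

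MYC itself measured 277, 369 and 229 CPM in CTRL and 83.8, 97.0 and 112 CPM in IM 18h, a log2 fold change of -1.58 ± 0.29 (edgeR adjusted p = 0.00014). CTRL replicate 2 was highest, and the groups did not overlap. Its partner MAX was at -0.79. Of 12 tested genes of the MYC and MAX network 4 rose, MXD4 (2.23), MXD3 (1.84), MLXIPL (1.31) and MXI1 (0.64), and MYC and MAX fell. MXD4, MXD3 and MXI1 encode repressors that compete with MYC for MAX. MXD4 measured 6.67, 9.43 and 7.97 CPM and 46.8, 33.7 and 32.2 CPM (edgeR adjusted p = 1.02e-07), with all 3 treated libraries higher. MLXIPL and MXI1 each lost their call without any 1 of 4 libraries, at adjusted p up to 0.16 and 0.185.

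Nucleotide and polyamine synthesis genes fell in 14 of 31 cases and rose in 2, with a median of -0.47. SRM, spermidine synthase, measured 229, 169.9 and 167 CPM in CTRL and 45.7, 64.4 and 63.5 CPM in IM 18h, a log2 fold change of -1.70 ± 0.27 (edgeR adjusted p = 2.53e-05). ODC1, the first enzyme of polyamine synthesis, was at -1.16, AMD1 at -1.21, IMPDH1, a guanine nucleotide enzyme, at -1.40 and the purine enzymes PFAS, ATIC, PAICS, PPAT and GART between -1.14 and -0.70. SAT1 (0.88), which breaks polyamines down, was among the risers.

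Glucose uptake and glycolysis genes were split, 10 of 24 fallen and 2 risen. SLC2A3, the glucose transporter GLUT3, measured 122, 194 and 137 CPM in CTRL and 7.17, 5.42 and 7.54 CPM in IM 18h, a log2 fold change of -4.49 ± 0.51 (edgeR adjusted p = 8.68e-07). SLC2A1, GLUT1, which erythrocytes carry in their membrane, measured 156, 141 and 168 CPM and 457, 367 and 349 CPM, a log2 fold change of 1.34 ± 0.18 (edgeR adjusted p = 3.43e-06). The 2 transporter mRNAs thus moved in opposite directions, each with non-overlapping groups. HK2, hexokinase, measured 125, 109.6 and 127 CPM and 9.66, 16.6 and 23.4 CPM, a log2 fold change of -2.87 ± 0.26 (edgeR adjusted p = 2.64e-08), whereas HK1 was at 0.04. PKM, pyruvate kinase, was at -1.98, LDHA at -1.37, ENO1 at -1.18, PGAM1 at -0.91 and PGK1 at -0.76. GAPDH (-0.16), ALDOA (-0.37) and TPI1 (-0.53) did not pass. The second riser was PFKFB4 (1.08), which sets fructose bisphosphate levels.

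Promoters of 3 fallen genes are given with the E-box CACGTG, which reads the same on both strands, in capitals. SRM is at chr1:11060172-11060257 (minus strand), LDHA at chr11:18394338-18394521 (plus strand) and UTP20 at chr12:101280055-101280104 (plus strand), all from RefSeq on GRCh38.p14.
SRM promoter: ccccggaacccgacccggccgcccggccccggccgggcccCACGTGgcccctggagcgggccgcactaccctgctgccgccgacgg
LDHA promoter: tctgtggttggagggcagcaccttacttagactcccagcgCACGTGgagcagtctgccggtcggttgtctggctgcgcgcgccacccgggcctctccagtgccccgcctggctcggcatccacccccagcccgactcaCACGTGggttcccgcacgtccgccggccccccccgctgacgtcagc
UTP20 promoter: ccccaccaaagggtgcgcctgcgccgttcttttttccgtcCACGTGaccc
The E-box was present in 8 of 56 starts of 47 nucleolar genes, 5 of 39 starts of 27 nucleotide and polyamine genes and 6 of 48 starts of 22 glycolysis genes. It was present in 8.15% of starts of all tested genes, 10.7% of those of fallen genes, 7.40% of those of risen genes and 7.80% of those of genes that did not pass. These too are descriptions of letters in a window and draw no link to MYC.

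**Figure D4:**
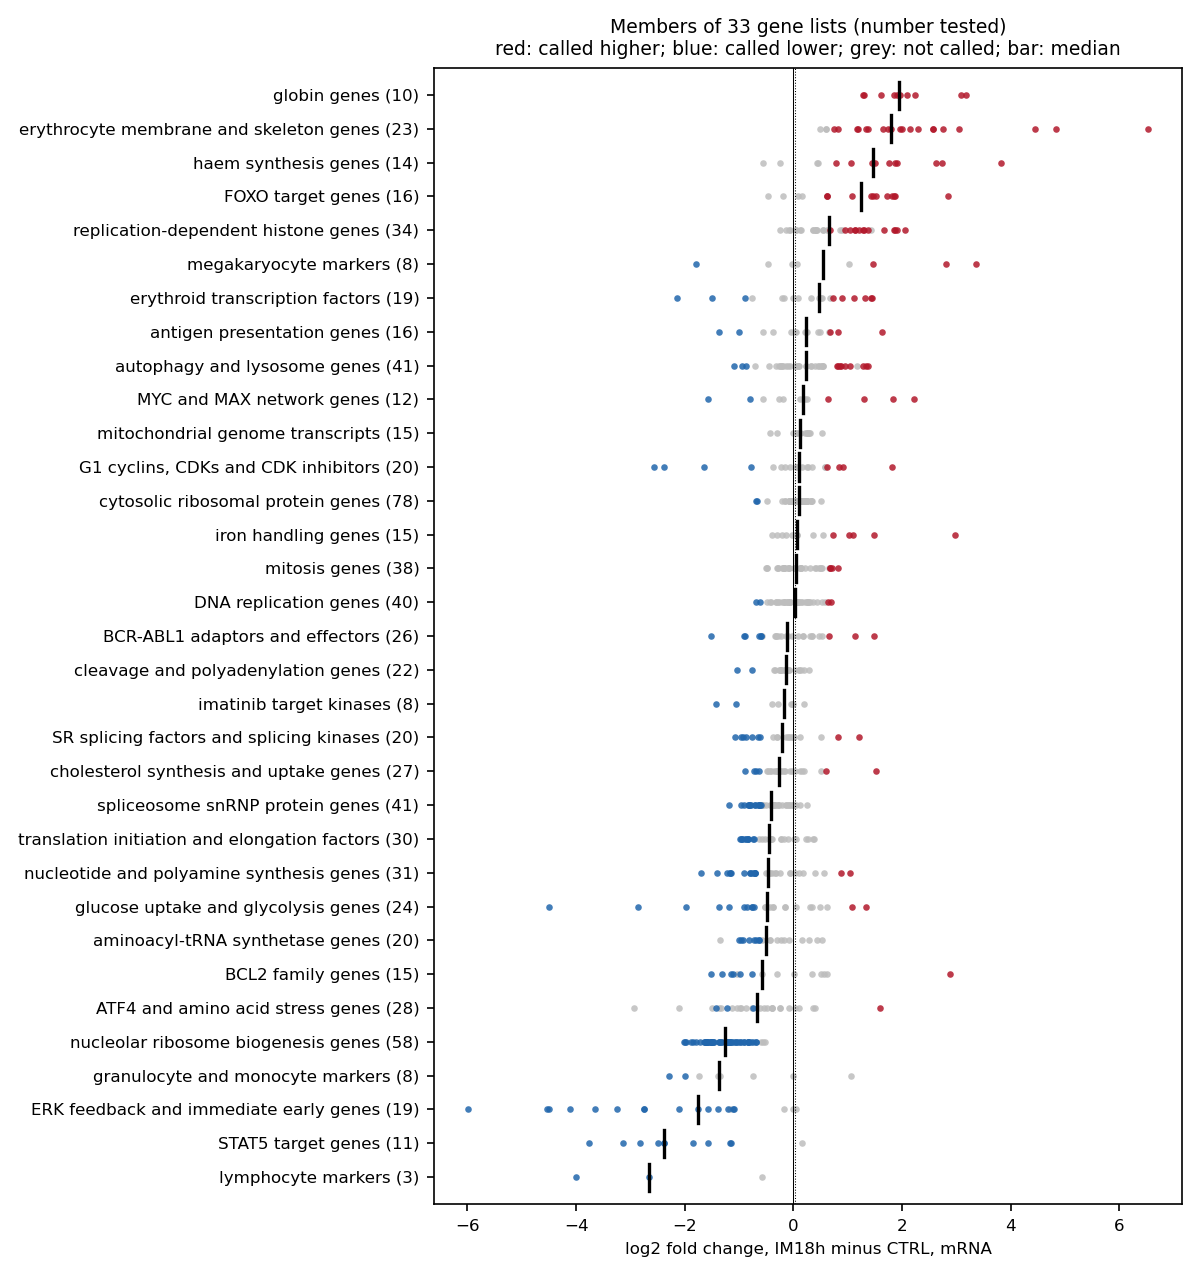
Each point is a tested member of 1 of 33 gene lists, placed by its log2 fold change of IM 18h minus CTRL, red where it rose, blue where it fell and grey where it did not pass, with a bar at the list median. The erythrocyte membrane list centres at 1.80, the nucleolar list at -1.25 and the ribosomal protein list at 0.10.

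Few cell cycle genes passed the test. Of 40 tested DNA replication genes LIG1 (0.69), a DNA ligase, and CDT1 (0.63), a licensing factor, rose and GINS3 (-0.69) and TIPIN (-0.62) fell, with a median log2 fold change of 0.04. CDT1 lost its call without 3 libraries and TIPIN without 2, taken 1 at a time. MCM7, a helicase subunit, was at -0.05 ± 0.09 (edgeR adjusted p = 0.643). Of 38 mitosis genes 4 rose, CDC25C (0.82), NDC80, CENPE and CENPF, and the median was 0.05. The last 3 each lost their call without 1 or more libraries, at adjusted p from 0.0518 to 0.201, and the number of risen members ranged from 1 to 6. MKI67, the proliferation antigen, measured 616, 649 and 573 CPM in CTRL and 749, 669 and 714 CPM in IM 18h, a log2 fold change of 0.21 ± 0.09 (edgeR adjusted p = 0.0711). The sign of both list medians changed when single libraries were left out, with values from -0.05 to 0.07.

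Regulators of G1 were more divided, with 4 risen and 4 fallen of 20, against 17.2% and 13.2% of all tested genes. Both D cyclins that fell, CCND1 (-2.56) and CCND2 (-2.39), activate CDK4 and CDK6. CCND2 measured 179, 234 and 192 CPM in CTRL and 36.3, 38.4 and 40.9 CPM in IM 18h (edgeR adjusted p = 4.84e-11). The CDK inhibitor gene CDKN1A, p21, fell too (-1.65), as did CDC25A (-0.78). CDKN1C (1.82), CDKN2C (0.92), RBL2 (0.84) and CDKN1B, p27 (0.62), which restrain the cycle, rose; CDKN1B lost its call without IM 18h replicate 1 or CTRL replicate 3. The kinase gene CDK6 was at -0.23 and did not pass.

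Replication-dependent histone transcripts, most of which end in a stem-loop in place of a poly(A) tail, rose in 14 of 34 tested genes, with none fallen and a median log2 fold change of 0.65. H2BC7 measured 6.28, 7.96 and 2.68 CPM in CTRL and 26.3, 19.8 and 15 CPM in IM 18h, a log2 fold change of 1.85 ± 0.42 (edgeR adjusted p = 0.00114). The linker histone H1-2, the most abundant member, was at 0.06 ± 0.23 (edgeR adjusted p = 0.868). With 1 library left out at a time, 9 to 15 rose. The median then ran from 0.42, without CTRL replicate 3, to 0.93, without CTRL replicate 2. Selection on poly(A) catches only a part of histone mRNA.

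Genes for splicing factors fell in part. Of 20 genes for SR proteins and the kinases that phosphorylate them 7 fell and 2 rose. SRSF2 measured 331, 227 and 428 CPM in CTRL and 121, 188 and 161 CPM in IM 18h, a log2 fold change of -1.07 ± 0.24 (edgeR adjusted p = 0.00114). SRSF1 was at -0.93, SRSF3 at -0.86, SRSF6 at -0.65, SRSF7 at -0.96 and TRA2B at -0.76. The risers were the kinase genes CLK4 (1.20) and CLK3 (0.83), whereas SRPK1 was at -0.62 and lost its call without CTRL replicate 1 or 2. Of 41 snRNP protein genes 15 fell and none rose, with a median of -0.41, and 11 to 18 fell without 1 library. GEMIN5 (-1.18), GEMIN6 (-0.96) and GEMIN4 (-0.79) belong to the complex that loads Sm proteins, of which SNRPD1 (-0.71), SNRPB (-0.65) and SNRPE (-0.63) fell. PRPF8 (-0.07) and SNRNP200 (0.12), core proteins of the spliceosome, did not pass. With upper quartile scaling 5 SR and kinase genes and 10 snRNP genes fell. Cleavage and polyadenylation genes fell in 2 of 22 cases, CLP1 (-1.03) and CSTF2 (-0.75), with a median of -0.14 and CPSF3, the endonuclease that JTE-607 inhibits, at 0.10.

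Lysosome and autophagy genes rose in 9 of 41 cases and fell in 3, and the share called, 29.3%, was close to the 30.5% of all tested genes. Risers included the initiation factors ULK1 (1.28) and ATG14 (1.37), the ATG8 protease ATG4A (1.33), the cargo receptor NBR1 (1.04), the mitophagy receptor BNIP3L (0.95) and the lysosomal proteases CTSB (0.88), CTSD (0.81) and CTSL (0.86). CTSB measured 106, 96.7 and 134 CPM in CTRL and 207, 207 and 205 CPM in IM 18h (edgeR adjusted p = 0.000199), without overlap. The 3 fallers were GLA (-0.88), a lysosomal galactosidase, ULK2 and ATG9B. The last 2 lost their call without 4 libraries and 1 library respectively. Cholesterol synthesis and uptake genes fell in 4 of 27 cases and rose in 2, a share called of 22.2% against 30.5% of all tested genes, with DHCR7 at -0.73, CYP51A1 at -0.90 and IDI1 at -0.62 among the fallers. The risers were TM7SF2 (1.52), a sterol reductase, and MVD (0.61), an enzyme of the mevalonate pathway. MVD lost its call without any 1 of 3 libraries and IDI1 without either of 2.

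In 1 list an untreated library stood apart. ATF4, which drives the response to amino acid shortage, measured 149, 420.3 and 157 CPM in CTRL, with replicate 2 highest, and 328, 213 and 236 CPM in IM 18h. Its targets followed that replicate. CHAC1 measured 0.276, 47.4 and 0.557 CPM in CTRL and 3.37, 1.79 and 1.16 CPM in IM 18h (edgeR adjusted p = 0.283) and DDIT4 3.75, 223 and 5.57 CPM and 27.9, 12.4 and 13.9 CPM (edgeR adjusted p = 0.395). The IM 18h libraries lay inside the CTRL range for both. Of 28 tested genes 1 rose and 3 fell, and the median log2 fold change was -0.67, or -0.16 without CTRL replicate 2. The number that fell was 15 without the filter on low counts and 6 of 27 with the replicate block. TRIB3 and SLC6A9 lost their calls without 3 and 4 libraries respectively, which left SLC7A5 (-1.22) and SHMT2 (-0.73), an amino acid transporter subunit and a mitochondrial enzyme of serine metabolism. The part of that replicate's state in other results was not tested beyond the values without it given here.

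How far the 18 h values were already reached at 6 h was asked directly. Between IM 18h and IM 6h 798 genes (4.41%) changed, 448 (2.48%) higher and 350 (1.93%) lower at 18 h. This number depended on single libraries: leaving out IM 6h replicate 1, 2 or 3 gave 182, 272 and 1474 genes, and leaving out IM 18h replicate 1 gave 220. The excess of higher calls turned as well, to 65 higher and 117 lower without IM 6h replicate 1, 95 and 177 without replicate 2, 105 and 115 without IM 18h replicate 1 and 345 and 357 without IM 18h replicate 3. It also turned without the fold threshold (662 and 848), without the filter on low counts (576 and 637) and with glmTreat (1 and 6). IM 6h replicate 3 was far above the other IM 6h libraries for several erythroid genes, and for SLC4A1 inside the IM 18h range, so counts are given with it and without it. Erythrocyte membrane genes were higher at 18 h in 14 of 23 cases, with a median difference of 0.78, and without that replicate in 19, with a median of 0.97. Haem synthesis genes were higher in 6 of 14 cases and in 9 without it, but in 0 without IM 18h replicate 1 and in 1 without either IM 6h replicate 1 or 2. By DESeq2 they were 8. ALAS1 was lower (-0.62). Of 10 globins HBA1 (1.25) and HBQ1 (0.82) were higher, and 6 were without IM 6h replicate 3. DESeq2 called 7 of the 10 on the same libraries, whereas edgeR called 0 without IM 6h replicate 1. Of 15 iron genes 4 were higher, TFRC, TFR2, SLC11A2 and SLC25A37, and 2 to 6 were without 1 library. Without IM 18h replicate 1 the membrane genes higher at 18 h were 2, KEL and DMTN, without IM 6h replicate 1 there was 1, DMTN, and without IM 6h replicate 2 there were 6. HBA1, HBQ1, ALAS1, TFRC and SLC11A2 each lost their call without at least 1 library, IM 6h replicate 1 for all 5, whereas TFR2 and SLC25A37 did not.

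SLC4A1 measured 7.46, 14.3 and 413 CPM at 6 h, against 1028, 374 and 285 CPM at 18 h, a difference of 1.96 ± 1.01 on the log2 scale (edgeR adjusted p = 0.246). EPB42 measured 8.84, 9.17 and 53.8 CPM at 6 h, against 117, 69.0 and 72.0 CPM, a difference of 1.85 ± 0.62 (edgeR adjusted p = 0.0669). KEL measured 129.8, 136 and 189.9 CPM at 6 h, against 358, 304 and 283 CPM, a difference of 1.05 ± 0.22 (edgeR adjusted p = 0.00503). Without IM 6h replicate 3 the differences were 5.69 for SLC4A1 (edgeR adjusted p = 0.000718), 3.25 for EPB42 (0.00155) and 1.24 for KEL (0.00219). KEL missed the threshold without IM 6h replicate 1 (edgeR adjusted p = 0.0604). ALAS2 measured 59.9, 92.9 and 279 CPM at 6 h, against 655, 482 and 452 CPM at 18 h, a difference of 1.88 ± 0.59 (edgeR adjusted p = 0.0533), and 2.79 without IM 6h replicate 3 (0.00852). SLC25A37 measured 515, 472 and 1549.7 CPM at 6 h, against 2985, 1999 and 1945 CPM, a difference of 1.45 ± 0.28 (edgeR adjusted p = 0.0034). Without IM 6h replicate 3, which was far above the other 6 h libraries here too, it was 2.22 (edgeR adjusted p = 2.38e-09).

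STAT5 targets had a median difference between 6 h and 18 h of -0.04, with CCND2 the 1 of 11 that was lower at 18 h (-0.73). SOCS3 measured 4.10, 1.87 and 2.53 CPM at 6 h (difference -0.42 ± 0.32, edgeR adjusted p = 0.464). Of 19 ERK targets ETV4 (-2.19), ETV5 (-1.65) and SPRED1 (-0.78), an inhibitor of RAS signalling, were lower at 18 h, and the median difference was -0.42. Nucleolar genes were lower in 9 of 58 cases, with a median of -0.43, in 16 without IM 6h replicate 3 in 3 without IM 6h replicate 2 and in 1 without either IM 6h replicate 1 or IM 18h replicate 1. Among 24 glycolysis genes SLC2A1 (0.73) was higher and SLC2A3 (-2.12), PKM (-1.55), LDHA (-1.06), ENO1 (-0.92) and PGAM1 (-0.73) were lower. Without IM 6h replicate 1 the calls for CCND2, ETV5, SPRED1, SLC2A1, SLC2A3 and PGAM1 were lost, with ETV5 at -0.40 (edgeR adjusted p = 0.621) and SLC2A3 at -0.91 (edgeR adjusted p = 0.14). ETV4, PKM, LDHA and ENO1 passed without any 1 of the 6 libraries. Of 16 FOXO targets edgeR called 0 and DESeq2 1, with 5 at an unadjusted p under 0.05 and a median of 0.28. Of 40 DNA replication genes both tools called 0, with 12 at an unadjusted p under 0.05, and of 34 histone genes edgeR called 0 and DESeq2 1, with 10. A p that misses the threshold does not show that 6 h and 18 h were alike.

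JTE-607 for 18 h gave a contrast of the same length and a different agent, without imatinib. Between IM 18h and JTE 18h 5474 genes (30.3%) differed, 3020 (16.7%) higher and 2454 (13.6%) lower with imatinib. Every globin gene of the 10 was higher in IM 18h (median 2.43), as were 20 of 23 membrane genes (median 1.71) and 11 of 14 haem genes. ALAS1 was lower (-0.64). EPB42 measured 2.94, 6.49 and 3.61 CPM in JTE 18h, against 117, 69.0 and 72.0 CPM in IM 18h, a difference of 4.32 ± 0.70 (edgeR adjusted p = 5.93e-05). STAT5 targets were lower in IM 18h in 10 of 11 cases (median -2.05), ERK targets in 14 of 19 and nucleolar genes in 48 of 58 (median -1.03), and FOXO targets were higher in 10 of 16. SOCS3 measured 38.6, 30.9 and 37.0 CPM in JTE 18h, above its IM 18h values (difference -4.05 ± 0.30, edgeR adjusted p = 9.87e-10). NOP16 measured 62.2, 69.9 and 63.3 CPM (difference -1.68 ± 0.20, edgeR adjusted p = 8.33e-07). For all 3 genes the JTE 18h libraries did not overlap the IM 18h libraries, which for EPB42 the rule for named genes required.

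The largest differences between both treatments by the same rule were SLC4A1 (5.60), ESPN (4.94) and EPB42 upwards and TSPOAP1 (-6.67), APOL4 (-5.56) and IL10RA (-5.37) downwards. TSPOAP1, a binding partner of TSPO of the outer mitochondrial membrane, had means of 2.19 CPM in CTRL, 2.23 CPM in IM 18h and 228 CPM in JTE 18h. IL10RA, the interleukin-10 receptor, had means of 9.89, 0.503 and 21.1 CPM. For TSPOAP1 the JTE 18h mean stood away from the CTRL mean and the IM 18h mean did not. Leaving out 1 library moved SLC4A1 to between 4.82, without IM 18h replicate 1, and 6.72, without JTE 18h replicate 2, which also moved ESPN to 6.01. APOL4 was at -6.36 without IM 18h replicate 2. Histone genes differed the other way from the comparison with CTRL, 7 of 34 lower and 2 higher in IM 18h, H2AC8 (0.98) and H2BC15 (0.72), with a median of -0.34.

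Nuclear RNA from the same 2 conditions was a separate readout, with its own CTRL libraries. Of 21929 genes tested in it 7152 (32.6%) changed, 3777 (17.2%) higher and 3375 (15.4%) lower; higher calls made up 52.8% of them, and 63.9% with upper quartile scaling. Of 3056 genes that rose in mRNA and were tested in nuclear RNA, 2339 (76.5%) rose there, and these were 76.5% of the 3057 genes of the mRNA test that rose in nuclear RNA. Of 2236 that fell in mRNA 1957 (87.5%) fell there, 67.3% of the 2907 that fell in nuclear RNA. In the opposite direction went 4 and 5 genes.

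The erythroid and nucleolar lists had nuclear medians of 1.99 for the membrane and skeleton genes, of which 23 of 23 rose, 1.39 for haem synthesis, with 10 of 14 risen, 1.82 for globins, with 9 of 9 risen, and -1.42 for nucleolar genes, of which 57 of 58 fell. NPM1 (-0.51) was the 1 that did not pass, and the globin HBM was not tested in nuclear RNA. SLC4A1 measured 2.46, 5.15 and 11.3 CPM in nuclear CTRL and 1127, 379 and 664 CPM in nuclear IM 18h, a log2 fold change of 6.85 ± 0.83 (edgeR adjusted p = 5.45e-05). CISH measured 86.5, 116 and 133 CPM and 11.9, 17.4 and 14.8 CPM, a log2 fold change of -2.93 ± 0.19 (edgeR adjusted p = 3.94e-09). NOP16 measured 81.2, 90.7 and 94.9 CPM and 12.1, 21.8 and 19.8 CPM, a log2 fold change of -2.32 ± 0.19 (edgeR adjusted p = 3.53e-08). None of these 3 had overlapping groups in nuclear RNA either. Among members tested in both RNAs, nuclear STAT5 targets fell in 10 of 11 cases (median -2.50), ERK targets in 15 of 19 with PHLDA1 risen (1.46), and FOXO targets rose in 12 of 16. Of 78 ribosomal protein genes RPL17 (-1.20), RPS10 (-0.72) and RPS26 (-0.63) fell, with a median of 0.09. Replication-dependent histone genes did not follow the mRNA values: of 33 tested in both RNAs H3C6 (0.97) rose and H1-3 (-1.20), H3C12 (-0.96), H4C8 (-0.76), H1-5 (-0.68) and H2BC8 (-0.66) fell, and the median was -0.31. H3C12 lost its call without CTRL replicate 3 (edgeR adjusted p = 0.0519), H1-5 without 2 libraries and H2BC8 without 3. RPS10 and RPS26 moved inside the fold threshold without 1 and 3 libraries respectively. H2BC7 was at -0.06 and H1-2 at -0.27.

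**Figure D5:**
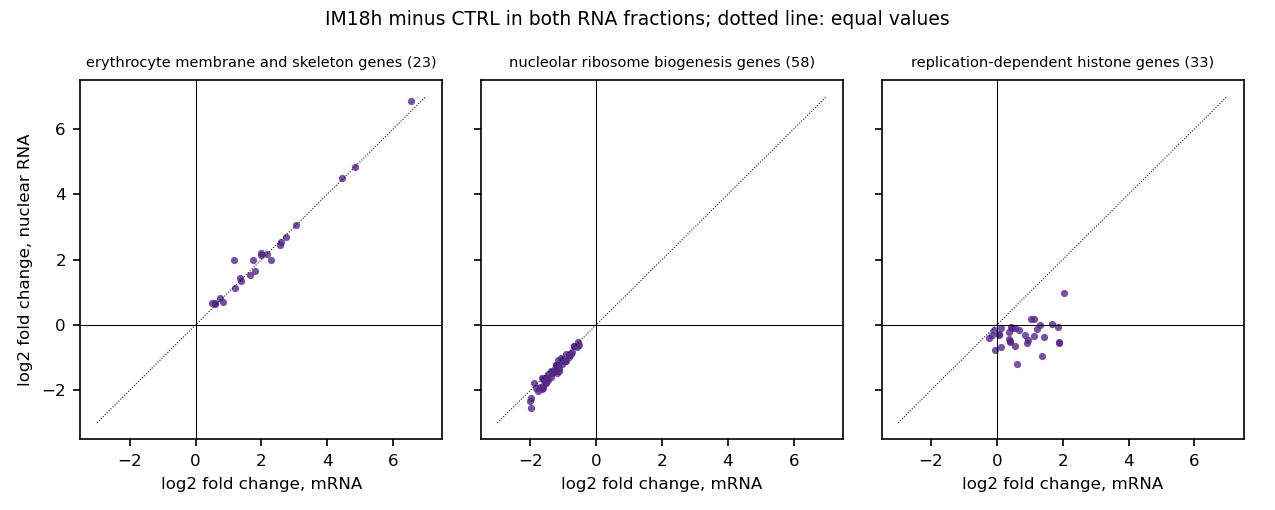
Log2 fold change of IM 18h minus CTRL in mRNA (horizontal axis) and in nuclear RNA (vertical axis), 1 point per gene tested in both, in panels for the membrane and skeleton, nucleolar and replication-dependent histone genes, with a dotted line at equal values. Membrane and skeleton genes lie in the upper right, with medians of 1.80 and 1.99, and nucleolar genes in the lower left, with medians of -1.25 and -1.42, while histone genes have medians of 0.65 in mRNA and -0.31 in nuclear RNA.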

How the data were processed

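Polyadenylated RNA was sequenced as paired reads in 27 libraries of 9 groups and rRNA-depleted nuclear RNA in 15, with 3 replicates per group. The authors trimmed and deduplicated reads, kept unique alignments of STAR to the human genome (GRCh38.p14 per the labels) with a limit on intron length, so that reads across longer introns were lost, and counted read pairs per gene over exons with featureCounts. The deposited values are raw counts. The libraries keep strand, but no strand setting of the counting is given, so overlapping and antisense genes may share reads. The annotation release is not given in the sources used here. Of 58243 gene identifiers 57532 were in GENCODE 44, 99.96% of them at an overlapping position, and 41836 had a symbol, 1181 symbols standing on more than 1 identifier. The deposited table held 0 count columns without a sample.

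Here, counts were filtered with filterByExpr, scaled by TMM and fitted with the robust quasi-likelihood model of edgeR 4.0.16 (R 4.3.3), all 27 mRNA libraries in 1 fit and the 15 nuclear libraries in another, without a replicate block. Genes were called changed where p, adjusted by Benjamini and Hochberg over all genes tested, was under 0.05 and the log2 fold change exceeded 0.6 in size. The SE is the log2 fold change divided by the root of its F statistic. DESeq2 1.42.0 was an alternative. Other alternatives were RLE and upper quartile scaling, no filter on low counts, a mean of at least 10 CPM, glmTreat, no fold threshold, removal of genes over 1% of a library or overlapping another gene, only the 6 libraries compared, a replicate block, and each library left out. On simulated counts of 16561 genes for the mRNA comparison, 66% of genes changed by 1 and 96% of those changed by 2 on the log2 scale were recovered, with 5 unchanged genes called. For the nuclear comparison, with 19216 genes, these were 71.7%, 97% and 6. Changes were set in 200 genes for mRNA and 199 for nuclear RNA, drawn among those with a mean of at least 1 CPM. All other counts were drawn at CTRL proportions. In the real mRNA comparison 5513 genes were called, so these rates need not hold for it.

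Replicate numbers paired the nuclear samples in part: deviations from the group means of same-numbered CTRL and IM 18h libraries correlated at 0.641, 0.233 and 0.671. Nuclear CTRL replicate 2 correlated better with IM 18h replicate 3, at 0.500. The deposited replicate numbers, used throughout here, did not pair the mRNA samples. However, the paper lists the mapped-read totals of mRNA CTRL replicates 1 and 2 under each other's number. By the paper's numbers the correlations with IM 18h replicates 1, 2 and 3 would be 0.452, 0.330 and 0.123. No fit used that numbering, so whether the mRNA samples were paired was not tested. The paper describes the 3 repeats of each K562 treatment as separate biological experiments. The labels do not say whether replicates came from separate cultures on separate days, and p-values measure the spread between these samples. The medium differs between the labels and the study's methods.

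The comparison, the 33 gene lists and their members were chosen with earlier results of these data known. Named genes were the 10 largest called rises and falls with at least 10 CPM and no overlap, the 6 largest by CPM, the 3 largest in each direction and the 2 most abundant of each list, 16 defining genes, and the 3 largest in each direction of the contrasts with IM 6h and JTE 18h. The last also needed at least 10 CPM and no overlap. Where a gene was picked in this way, its lack of overlap was a condition and not a result. Other genes are named to account for small counts, or were chosen after their values were seen. Of the list members 74 were below the filter on low counts and 3 had no matching identifier. The other groups of the series were not analysed here beyond their part in the fits. A few genes of the lists are counted but not reported by name here.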

Additional observations from a re-analysis of the deposited data

Results flagged for a closer look

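The difference between 6 h and 18 h of imatinib was tested directly, with no CTRL library in the contrast, and 798 genes passed. By the rule for named genes, 6 stood at its ends.

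CA1, carbonic anhydrase 1 of the red cell, measured 39.9, 32.0 and 149.7 CPM at 6 h and 347, 304 and 236 CPM at 18 h, a difference of 2.0 ± 0.52 on the log2 scale (edgeR adjusted p = 0.0233). TSPAN32 measured 1.51, 2.48 and 4.18 CPM and 9.83, 13.1 and 10.9 CPM, a difference of 2.06 ± 0.37 (edgeR adjusted p = 0.00181). HEPACAM2, a cell adhesion protein, measured 1.59, 3.75 and 3.14 CPM and 7.28, 14.6 and 8.31 CPM, a difference of 1.84 ± 0.55 (edgeR adjusted p = 0.0394). All 3 were higher in each of the 3 libraries at 18 h, which the rule for named genes required.

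ETV4, an ETS factor under ERK control, measured 38.1, 23.0 and 20.7 CPM at 6 h and 5.27, 6.00 and 6.66 CPM at 18 h, a difference of -2.19 ± 0.19 (edgeR adjusted p = 3.86e-07). SLC2A3 measured 61.8, 9.63 and 15.6 CPM and 7.17, 5.42 and 7.54 CPM, a difference of -2.12 ± 0.48 (edgeR adjusted p = 0.0109). SCG3, a granin of secretory vesicles, measured 50.3, 63.1 and 32.2 CPM and 11.8, 12.2 and 12.4 CPM, a difference of -2.0 ± 0.26 (edgeR adjusted p = 0.000112). For SLC2A3, IM 6h replicate 1 was far above the other 6 h libraries.

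ETV4, SCG3 and TSPAN32 passed without any 1 of the 6 libraries. CA1 was lost without IM 18h replicate 1 or 2 or IM 6h replicate 1 or 2, with adjusted p up to 0.146, and moved to 3.04 without IM 6h replicate 3. HEPACAM2 was lost without any 1 of the 6 libraries, with adjusted p up to 0.208. SLC2A3 was lost without replicate 1 of either group, with an adjusted p up to 0.14.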

How the results depend on the processing

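Among the named genes in mRNA, no change of setting reversed the direction of a called value. The balance of higher and lower calls against IM 6h turned under several settings. Reversal was not checked for the other called genes or, across all settings, for nuclear RNA. Between IM 18h and CTRL the count of 5513 in mRNA became 2416 among genes with a mean of at least 10 CPM, 2560 with glmTreat and 1887 without genes that overlap another gene, the first and the last with fewer genes tested (8822 and 6009). Against JTE 18h the count of 5474 became 2339, 2490 and 1858, and in nuclear RNA the count of 7152 became 2788, 3847 and 2290. Between IM 18h and IM 6h the count of 798 became 419, 7 and 262, and also 1213 without the filter on low counts and 1510 without the fold threshold. RLE scaling, upper quartile scaling, DESeq2, the removal of genes over 1% of a library and fits of 6 libraries kept every one of the 4 counts within 1.5 times. With 1 library left out the counts ran from 4580 to 5515, from 182 to 1474 against IM 6h, from 4545 to 5398 against JTE 18h and from 5995 to 7209 in nuclear RNA.

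Upper quartile scaling moved the median of all tested genes from 0.04 to 0.11 in mRNA and from 0 to 0.12 in nuclear RNA, and higher calls in mRNA from 56.5% to 63.1%. Higher calls in mRNA made up 48.3% among genes with a mean of at least 10 CPM and 50.1% without the filter on low counts. In mRNA the correlations of same-numbered CTRL and IM 18h libraries, by the deposited numbers, were -0.363, -0.336 and 0.123. Not every library correlated best with its own number. The replicate block, set on the deposited numbers, gave 5085 called genes against CTRL, 337 against IM 6h and 5601 against JTE 18h. In nuclear RNA, where numbers paired the samples in part, the block gave 7245. It changed no call of the genes given nuclear values in the Results. Apart from H3C12, the genes with opposite calls in mRNA and nuclear RNA were not checked with it. Of 324 named values with DESeq2, 318 kept their side of the threshold, 5 lost it and 1 gained it. With glmTreat 87 lost their call.

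Depth limits low genes: 1 count is worth 0.0542 CPM, and a gene under 3 counts is not shown to be absent.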

Other observations

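Long non-coding RNA genes moved mostly upwards. Of 2414 tested, 743 (30.8%) rose and 146 (6.05%) fell, with a median log2 fold change of 0.52 and a median level of 1.00 CPM. Of 12704 tested protein-coding genes 1990 (15.7%) rose and 1940 (15.3%) fell, with a median of -0.02 and a median level of 24.2 CPM. The genes of this section were chosen after their values were seen. SLC2A1-DT, which starts beside the glucose transporter gene SLC2A1, measured 1.49, 3.04 and 1.51 CPM in CTRL and 30.9, 20.5 and 17.9 CPM in IM 18h, a log2 fold change of 3.51 ± 0.39 (edgeR adjusted p = 3.33e-07). SGMS1-AS1 was at 2.83 and LINC02772 at 3.22. SNHG15, a host gene of a small nucleolar RNA, measured 49.3, 38.4 and 60.1 CPM and 6.35, 10.7 and 9.74 CPM, a log2 fold change of -2.46 ± 0.33 (edgeR adjusted p = 4.01e-06). MIR223HG, the host transcript of the myeloid microRNA miR-223, was at -3.13, with CTRL at 25.7, 70.9 and 26.6 CPM, and lost its call without any 1 of 4 libraries. SLC2A1-DT, SGMS1-AS1, SNHG15 and MIR223HG overlap other counted genes, and without a known strand setting their reads cannot be told apart from those of their partners.

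Antigen presentation and interferon genes passed the test about as often as all genes, with 31.25% of 16 called against 30.5%. Of the 16, 3 rose, STAT2 (1.64), the interferon signal transducer, TAPBP (0.83), the tapasin chaperone of class I molecules, and IRF1 (0.68), and TAP2 (-1.37), a subunit of the peptide transporter, and HLA-E (-1.01) fell. STAT2 measured 44.5, 44.2 and 36.3 CPM in CTRL and 147, 119 and 122 CPM in IM 18h, without overlap. B2M, beta-2-microglobulin, was at 0.04 ± 0.08 (edgeR adjusted p = 0.686). IRF1 lost its call without IM 18h replicate 2 or CTRL replicate 2.

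Of 93 tested genes with no count in any CTRL library 13 rose and 80 did not pass. Such genes pass the filter on low counts only through other groups, so their number is tied to that filter. NOX5, an NADPH oxidase, measured 2.88, 1.58 and 1.54 CPM in IM 18h, at least 12.3-fold higher than the floor of 3 counts per library. RBBP8NL measured 2.01, 1.42 and 1.49 CPM, at least 10.0-fold higher than that floor. Of 83 tested genes with no count in any IM 18h library 3 fell and 80 did not pass.

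The 9 genes with opposite calls in mRNA and nuclear RNA were mostly low in mRNA. Higher in mRNA and lower in the nucleus were H3C12 (1.37 in mRNA and -0.96 in nuclear RNA), RAB26 (1.31 and -0.94), LINC00324 (1.41 and -0.81) and ENSG00000273007, a long non-coding RNA. RAB26, a small GTPase of secretory granules, measured 1.10, 0.943 and 0.780 CPM in mRNA of CTRL and 2.12, 2.58 and 2.31 CPM in that of IM 18h, and 10.7, 11.3 and 17.9 CPM and 4.49, 7.79 and 8.66 CPM in nuclear RNA. Lower in mRNA and higher in the nucleus were the pseudogenes HSPA8P1 (-0.90 and 0.94), HSP90B2P (-0.93 and 0.80) and PNPT1P1 (-1.65 and 0.97), the mitochondrial tRNA gene MT-TM (-2.73 and 0.77) and PRNCR1 (-0.79 and 4.71). In mRNA the call of LINC00324 was lost without any 1 of 5 libraries, at adjusted p from 0.0511 to 0.152, that of H3C12 without IM 18h replicate 1 or CTRL replicate 3 and that of PNPT1P1 without CTRL replicate 2. Pseudogenes can share reads with their parent genes, so their values are uncertain.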
